A study of Saccharomyces cerevisiae with 312 samples.

Results

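The essential proteins Nop1, Nop56 and Nop58 of the box C/D small nucleolar particles of budding yeast were used as query mutations in genetic interaction mapping screens. The arrays titled with these query names were taken, which gave 7 of the 312 arrays of the series: 3 for NOP1 (YDL014W, chromosome IV), 2 for NOP56 (YLR197W, chromosome XII) and 2 for NOP58 (YOR310C, chromosome XV). In this method a query mutant is crossed with a pool of barcoded mutants, haploid double mutants are selected, and the abundance of each barcode is compared by 2-colour hybridisation with that in a reference population. The populations grew for 18 generations with G418 and nourseothricin, and genomic DNA of the query population carried Cy3 and that of the reference Cy5. Every query was a DAMP allele, in which an essential gene is kept but its 3′ end is disturbed so that less mRNA accumulates. How much of each protein remained is not given in the sources used here. All strains, queries and references alike, derived from BY4742/BY4741. The reference of screen 1 of each query carried a deletion of YEL068C, and that of screen 2 was a mix of deletions. The first and the second NOP1 array came from the same query population and were averaged, so each query has 2 screens.

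Box C/D particles pair a guide RNA with Nop1, Nop56, Nop58 and Snu13, and they methylate the ribose of chosen nucleotides of ribosomal RNA in the nucleolus. Nop1, called fibrillarin in animals, is the methyltransferase, while Nop56 and Nop58 form the scaffold that holds it on the guide. Some of these particles are also needed to cleave the ribosomal RNA precursor, so a cell short of them makes fewer ribosomes. The H/ACA particles, a separate family with the proteins Cbf5, Nhp2, Nop10 and Gar1, guide pseudouridylation in the same compartment.

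Values are log2 ratios of a strain in the query population over the reference, centred on the median of each array. A negative value means that the strain was rarer in the query population. Where a pair of values is given for a query, screen 1 comes first and screen 2 second. A strain is called lower or higher where its mean over the 2 screens differed from 0 at an adjusted p under 0.05 and by at least 1 on the log2 scale. The variance in that test is pooled over all queries, so a call does not by itself show that the 2 screens of a query agree. Nothing in the labels says that the screens of a query started from separate crosses.

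The cross itself left its mark on each array. Up to 25 genes from the query locus, strains had medians of -3.0, -2.97 and -3.84 on the NOP1 arrays, -2.59 and -2.50 on the NOP56 arrays, and -4.35 and -3.29 on the NOP58 arrays. The loss faded with distance, and strains more than 100 and up to 200 genes away had medians between -0.12 and 0.12. No array of these queries had to be turned in sign, and on each the loss was centred on the locus that its label names. The strain altered in NOP58 stood at -2.83 and -2.07 in its own query, and the NOP56 strain at -2.04 in the only array of its own query that measured it. Strains within 100 genes of the query were left out of all that follows, which removed 107 to 123 strains per query. Each array measured 4007 to 4119 of 4125 strains. Strains within 5 genes of YEL068C had medians of 3.81 to 4.71 on the arrays with the YEL068C reference and of -0.29 to 0.17 on those with the mixed reference.

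**Figure D1:**
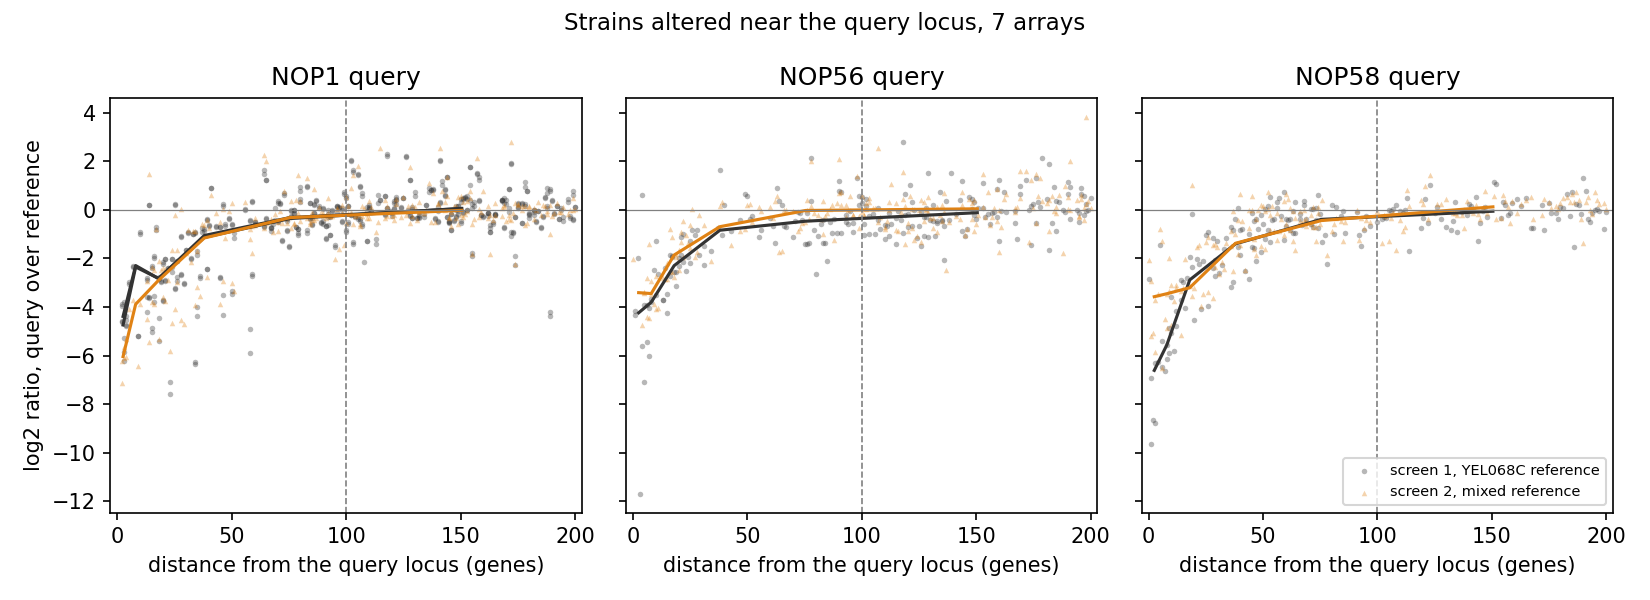
Log2 ratio of each strain (vertical axis) against its distance in genes from the query locus (horizontal axis), for the 7 arrays. Grey circles are arrays against the YEL068C reference and orange triangles those against the mixed reference. Lines join the medians of distance classes, and the dashed line marks the 100 genes left out. In all 3 panels the ratios are low beside the locus and return to about 0.

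The screens of NOP1 and of NOP56 repeated each other in part, and those of NOP58 far less. Across strains, Pearson's r between the 2 screens was 0.526 for NOP1 (3993 strains), 0.410 for NOP56 (3904 strains) and 0.0368 for NOP58 (3961 strains). Screen 1 of NOP56 correlated more with screen 1 of NOP58, on the same reference pool (0.460), than with its own screen 2. Screen 2 of NOP56 correlated at 0.486 with screen 2 of NOP1, on another pool. These are descriptions across strains, which are not independent replicates. The 2 NOP1 arrays of the same population correlated at 0.984. Both screens lay beyond 1 on the called side for 146 of the 188 strains higher in NOP1 and for 120 of the 189 higher in NOP56. It held for 19 of the 41 lower calls in NOP1, where 21 passed 1 in screen 1 alone, and for 47 of the 103 in NOP56. In NOP58 this held for 5 of 19 lower and 11 of 26 higher calls, and 12 of the lower calls passed 1 in screen 1 alone.

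The 3 queries differed in how many strains they changed. In NOP1, 41 strains were lower (1.03% of 3993 tested) and 188 higher (4.71%), 5.74% in all. In NOP56, 103 were lower (2.64% of 3904) and 189 higher (4.84%), 7.48% in all. In NOP58, 19 were lower (0.48% of 3961) and 26 higher (0.656%), 1.14% in all. Over the series, 2.37% of 547925 pairs of strain and query were lower and 1.24% higher, and the median query had 36 lower and 30 higher strains. NOP1 and NOP56 thus carried more calls of both kinds than the median query, and their calls leaned to the higher side where those of the series leaned to the lower. This balance turned with the scaling: with quantile normalization, which gives every array the same distribution of values, lower calls made up 69.9% in place of 17.9% in NOP1, 62.9% in place of 35.3% in NOP56 and 58.5% in place of 42.2% in NOP58. Without screen 1, NOP1 had 117 calls, and without its screen 2 NOP58 had 154.

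Strains altered in the scaffold proteins of the same particle were higher in NOP1 (NOP56 and NOP58 strains) and in NOP56 (NOP58 strain). The NOP56 strain stood at 2.49 and 3.13 in the NOP1 query (mean 2.81 ± 0.45, SD, n = 2, adjusted p = 1.184e-06). The NOP58 strain stood at 2.76 and 2.32 in the NOP56 query (mean 2.54 ± 0.31, SD, n = 2, adjusted p = 2.165e-15). It stood at 1.10 and 1.34 in the NOP1 query (mean 1.22 ± 0.17, SD, n = 2, adjusted p = 0.0002507), a call that was lost with quantile normalization (0.74), with arrays scaled to 1 spread and with a block for the reference pool (0.92). In the NOP58 query the NOP56 strain reached 1.30 and 1.39 and was not called (adjusted p = 0.06645). All 8 of these values lay above 1, and over the other queries the NOP56 and NOP58 strains averaged 0.18 and 0.06. Among 112 deletion queries the NOP56 strain was higher in 9, up to 2.59 in PRE9, and lower in 5. The NOP58 strain was called in none of 112. Its value was lower in NOP1 than in NOP56, by -1.32 (adjusted p = 0.02026 for the difference), a call that 6 of 21 alternatives lost. SNU13, the RNA-binding core protein, had means of 0.24, -0.27 and 0.36 in NOP1, NOP56 and NOP58 and was not called. No NOP1 strain was among those tested.

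Assembly factors of the particle gave a single call. TAH1, a cofactor of the Hsp90 chaperone in the R2TP complex that assembles box C/D particles, was higher in NOP58 at 2.52 and 1.06 (mean 1.79 ± 1.03, SD, n = 2, adjusted p = 1.275e-06) and stood at 0.39 in NOP1 and -0.42 in NOP56. Without screen 1 of NOP58 this call was lost, with a value of 1.06. RVB1, an ATPase of the same complex, had means of 0.83, 0.50 and -0.94 in the order NOP1, NOP56, NOP58, and HSP82, one of the yeast genes for Hsp90, -0.68, 0.18 and 0.01. Neither was called. Of 9 genes on the assembly list, 4 had a measured strain. The call was 1 of 4 tested in NOP58, where 0.656% of all strains were higher. No call among 4 strains in NOP1 and 3 in NOP56 is near the 5.74% and 7.48% of all strains called there.

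Few strains of the other family of guide particles were tested, and none was called. The H/ACA factors CBF5, NAF1, NHP2 and SHQ1 gave 4 tested strains in NOP1, 3 in NOP56 and 4 in NOP58. Their means ran from -0.69 to 0.53. The share of all strains called was 5.74% in NOP1, 7.48% in NOP56 and 1.14% in NOP58. No call among so few strains is near those shares. CBF5, the pseudouridine synthase, was tested in NOP1 (-0.69) and NOP58 (-0.29). Among 7 strains tested per query for factors that mature or terminate small nucleolar RNAs, SRP40, a nucleolar phosphoprotein, was called lower in NOP58 at -4.33 and -0.43. That call rests on screen 1, and 1 of 7 is 14.3%, against 0.48% of all strains lower in NOP58. RNT1, the RNase III that cuts precursors of these RNAs, had means of -0.09, -0.51 and -0.67, and NRD1, NAB3 and SEN1, which terminate their transcription, lay between -0.26 and 0.37.

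Strains altered in factors that build the small ribosomal subunit were called lower more often than all strains in NOP1. In NOP56 their share was near that of all strains. Of 55 tested in NOP1, 4 were lower (7.27%, against 1.03% of all strains) and 1 higher, with a list median of 0.02. Of 53 tested in NOP56, 2 were lower (3.77%, against 2.64%) and none higher, with a median of 0.01. The medians over all strains tested lay within 0.02 of 0. BFR2, a component of the small subunit processome, was lower in both, at -1.06 and -1.81 in NOP1 and -0.84 and -1.46 in NOP56. NOP6, an RNA-binding protein of small subunit assembly, was lower in NOP1 at -4.28 and -1.0, with a mean of -0.50 in NOP56 and -0.10 in NOP58. It lies on the chromosome of NOP1, 189 genes away, outside the window left out. HCR1, which acts in translation initiation and in the last cut of the small subunit RNA, was higher in NOP1 at 2.69 and 3.92 (mean 3.31 ± 0.86, SD, n = 2, adjusted p = 0.0001491). Without screen 2 it was not called, at 2.69. HCR1 lies 5 genes from NOP56 and was not tested there.

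Of factors of the large subunit, none of 51 tested was called in NOP1, against 1.03% of all strains lower and 4.71% higher. In NOP56, DBP7, a helicase of large subunit assembly, was lower at -3.21 and -2.19, and ARX1, an export factor of the large subunit, was higher at 2.07 and 1.57, as was CGR1 at 1.45 and 1.16, of 47 tested. These calls were 2.13% lower and 4.26% higher, near the 2.64% and 4.84% of all strains tested in NOP56. In NOP1 the same strains had means of -1.65, 1.50 and 1.27 without being called. RNA polymerase I, which makes the ribosomal RNA precursor, had no call in any of the 3 queries among 7 or 8 strains tested. For so few strains that is near the shares of all strains called, 5.74% in NOP1, 7.48% in NOP56 and 1.14% in NOP58.

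PUF4 gave the lowest mean of any strain tested in NOP1. It codes for a Pumilio-family protein that binds mRNAs of ribosome biogenesis factors and promotes their decay. It stood at -2.59 and -4.16 in NOP1 (mean -3.37 ± 1.11, SD, n = 2, adjusted p = 0.0003722) and at -2.46 and -3.37 in NOP56 (mean -2.92 ± 0.65, SD, n = 2, adjusted p = 0.00328). In NOP58 it stood at 0.08 and 0.70. The 4 screens of NOP1 and NOP56 lay below the 2 of NOP58 without overlap, and the difference from NOP58 was -3.76 for NOP1 (adjusted p = 0.0195) and -3.30 for NOP56 (adjusted p = 0.0497). Of 21 alternatives, 6 lost the first of these calls and 14 the second, with adjusted p up to 0.236 and 0.663. In the DAMP queries of H/ACA proteins the PUF4 strain averaged 1.10 in CBF5, 0.32 in NHP2 and 1.46 in SHQ1. Among 122 deletion queries it was lower in 6 and higher in 4, from -4.06 in UBP6 to 4.33 in RPL9A. Without screen 2, PUF4 was not called in either query, at -2.59 in NOP1 and -2.46 in NOP56.

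The kinase strains ELM1 and MCK1 and the LSM4 strain were also lower in both queries. ELM1, a kinase that controls bud shape and septins, stood at -3.95 and -1.71 in NOP1 and at -5.22 and -2.33 in NOP56, and at -2.31 and 0.33 in NOP58. MCK1, a kinase of the glycogen synthase kinase family, stood at -2.51 in each screen of NOP1, at -4.11 and -3.26 in NOP56, and at -1.97 and -0.38 in NOP58. From either NOP1 screen alone MCK1 was not called. Screen 1 was the lower one for ELM1 in all 3 queries, and without screen 1 ELM1 was called in neither NOP1 (-1.71) nor NOP56 (-2.33). LSM4, a subunit of Lsm rings and a member of the deadenylation and decapping list, stood at -2.14 and -3.18 in NOP1 (adjusted p = 9.264e-11). In NOP56 it stood at -1.81 and -3.15 (adjusted p = 1.458e-09). LSM4 was called in both queries under every alternative run. In the TRM112 query, which shares reference pools with them in part, ELM1, MCK1 and LSM4 were lower too (-3.78, -2.14 and -1.89). Among deletion queries, ELM1 was lower in 6 of 108, MCK1 in 10 of 121 and LSM4 in 16 of 125. LSM4 was higher in 8 deletion queries, ELM1 and MCK1 in none. Of 14 deadenylation and decapping strains tested, 3 were lower in NOP1 and 3 in NOP56, with list medians of -0.64 and -0.35. That was 21.4% in each, against 1.03% and 2.64% of all strains tested. The Lsm subunits LSM5 and LSM6 were lower in NOP56 (-2.11 and -2.31) and not called in NOP1 (-1.60 and -0.74). CAF40, a subunit of the CCR4-NOT deadenylase, was higher in both at 1.12 and 1.37, so the list did not move one way.

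Ribosomal protein strains went in both directions. Of 33 strains of the large subunit, 3 were lower and 8 higher in NOP1 (median 0.88), 2 lower and 11 higher in NOP56 (median 0.93), and none was called in NOP58 of 32 (median 0.09). RPL40A, whose product is made as a fusion with ubiquitin, stood at -2.34 and -1.72 in NOP1 and at -2.20 and -3.58 in NOP56. RPL41B was lower in both, with means of -1.12 and -1.08. RPL8B and RPL11B were higher in both, at 1.76 and 2.16 for RPL8B and 1.89 and 1.97 for RPL11B. Of the small subunit, 2 of 18 strains were higher in NOP1 and 1 of 17 in NOP56, RPS22B among them in each (means 1.60 and 1.39), and RPS30B was lower in NOP56 (-1.44). Over all strains tested, 1.03% were lower and 4.71% higher in NOP1, and 2.64% lower and 4.84% higher in NOP56. The higher share of the small subunit in NOP56, 5.88%, was thus near that of all strains. With quantile normalization none of the large subunit strains stayed higher in NOP1 and 2 did in NOP56, at list medians of 0.52 and 0.53.

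Nonsense-mediated decay, which removes mRNAs with premature stop codons, was a list of which every measured strain was called in NOP1 and NOP56. All 5 measured strains were higher in NOP1 and in NOP56, against 4.71% and 4.84% of all strains tested, and none was called in NOP58. NMD2, a core factor, stood at 1.94 and 2.17 in NOP1 and at 3.35 and 3.80 in NOP56 (mean 3.57 ± 0.32, SD, n = 2, adjusted p = 3.383e-08). UPF3, its partner, stood at 1.89 and 2.05 in NOP1 and at 3.22 and 3.18 in NOP56. EBS1 and NMD4, accessory factors, had means of 1.85 and 1.75 in NOP1 and of 2.15 and 1.41 in NOP56. Every one of these 16 values exceeded every NOP58 value of the same 4 strains, which ran from -0.29 to 0.55. NAM7, the helicase of the pathway, was not picked by the naming rule, and had means of 1.85, 2.80 and 0.33 in NOP1, NOP56 and NOP58. The list medians were 1.85, 2.80 and -0.02, against medians within 0.02 of 0 over all strains tested. In NOP56 the difference from NOP58 passed the test for NMD2 (3.09, adjusted p = 0.00648), UPF3 (3.34, adjusted p = 0.00255), EBS1 and NMD4. For NMD4 it passed in NOP1 as well. Of 21 alternatives, 7 lost the EBS1 call, 6 the NMD4 call in NOP56 and 3 that in NOP1. From a single NOP1 screen, either way, 1 of 5 was called, with medians of 2.05 without screen 1 and 1.65 without screen 2. Under quantile normalization 2 were called in NOP1 and 3 in NOP56, and the medians were 1.16 and 1.77.

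Few other queries had such a median. Ranked by the median of these strains among 140 queries with at least 2 screens, NOP56 was the 1st, TRM112 the 2nd (2.04) and NOP1 the 3rd. NOP58 came 70th. Of the 10 DAMP queries ranked, the 7 other than these top 3 had medians from -0.33 to 0.03, the H/ACA queries CBF5, NHP2 and SHQ1 among them at -0.18, 0.03 and -0.12. The highest deletion query was GCN2, the kinase of the general amino acid control, at 1.55 with 2 of 4 strains higher. In TRM112, NMD2 and UPF3 were higher (2.06 and 2.43), while EBS1 (0.18) and NMD4 (0.27) were not called. TRM112 was compared in part with the reference pools of screen 2 of NOP1 and of NOP56, so its values are not independent of theirs.

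**Figure D2:**
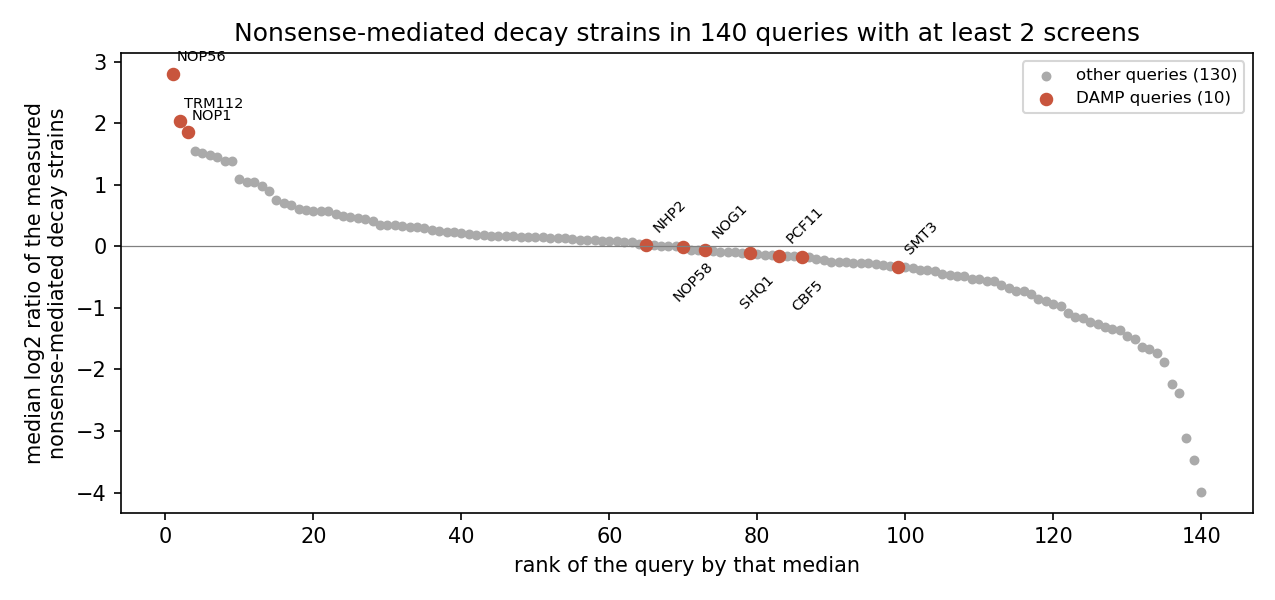
Median log2 ratio of the measured nonsense-mediated decay strains in each of 140 queries (vertical axis), ordered by rank (horizontal axis). DAMP queries are red and named, other queries grey. NOP56 at 2.80, TRM112 at 2.04 and NOP1 at 1.85 lead, while NOP58 and the H/ACA queries lie near 0.

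Of the lists examined, mitochondrial ribosomal proteins held the most higher calls in NOP1. Of 39 tested, 28 were higher and none lower (median 1.72). In NOP56, 9 of 36 were higher and none lower (median 0.83), and in NOP58, 1 of 35 (median -0.01). Of all strains tested, 4.71%, 4.84% and 0.656% were higher in NOP1, NOP56 and NOP58. MRPL28 stood at 2.66 and 1.62 in NOP1, MRP2 at 2.31 and 1.56, and MRPL20 at 0.90 and 1.66. RSM22 was the one higher strain of the list in NOP58, at 3.85 and 1.54, with a mean of 1.03 in NOP1. MEF2, a factor that recycles mitochondrial ribosomes, was higher at 2.34 and 2.61 in NOP1 and at 3.19 and 2.84 in NOP56, with -0.23 and 0.81 in NOP58. It was called in both queries under every alternative run. From screen 2 alone 13 of the list were called in NOP1 and 2 in NOP56, and under quantile normalization 6 and 3.

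Cytoplasmic translation and RNA-binding factors were among the highest single values. SRO9, an RNA-binding protein with a La motif, stood at 3.98 and 3.76 in NOP1 (mean 3.87 ± 0.16, SD, n = 2, adjusted p = 8.947e-11) and at 2.96 and 2.81 in NOP56 (mean 2.89 ± 0.11, SD, n = 2, adjusted p = 1.995e-06). In NOP58 it stood at 0.19 and 0.95, below all 4 others, and the difference of NOP1 from NOP58 was 3.30 (adjusted p = 0.00115). Among 117 deletion queries SRO9 was lower in 14 and higher in 9, up to 3.13 in RAI1. TRM112, the activating partner of methyltransferases that act on tRNA, ribosomal RNA and a release factor, stood at 2.73 and 3.47 in NOP1 and at 3.08 and 3.54 in NOP56, with 0.69 and 0.98 in NOP58. Without screen 2 of NOP1, TRM112 was not called there, at 2.73. SUI3, a subunit of the initiation factor that delivers the initiator tRNA, stood at 2.09 and 2.14 in NOP1 and at 2.34 and 2.72 in NOP56. SUI2, another subunit, was higher in NOP1 (2.99) and reached 2.76 in NOP56 without being called. PKR1, which assembles the vacuolar proton pump, had means of 2.96 and 3.13 and SSQ1, a mitochondrial Hsp70 chaperone, 3.00 and 1.25, the last not called. PKR1 was not called without screen 2 of NOP1 (2.38) or without screen 1 of NOP56 (2.49). In NOP58 the means of these 4 strains lay between 0.38 and 0.41.

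Strains of other RNA decay, chromatin and proteasome complexes were higher too. SKI8 and SKI3, of the SKI complex that feeds mRNA to the cytoplasmic exosome, stood at 2.42 and 2.90 (SKI8) and 1.01 and 1.87 (SKI3) in NOP1, and at 2.35 and 1.42 and at 2.25 and 2.12 in NOP56. SKI8 was called in both, SKI3 and SKI2 in NOP56. SKI7, the adaptor to the exosome, was not called in either and was lower in NOP58 at -2.92 and -1.18. That call was lost without screen 1 (-1.18) and with a block for the reference pool (-0.80). SKI7 was also lower in the CBF5 (-1.92), NHP2 (-1.87) and NOG1 (-1.98) queries. Among 122 deletion queries it was lower in 22 and higher in 5. PHO23, of the large Rpd3 histone deacetylase complex, was higher in both with means of 2.03 and 2.46. Of 7 strains of that complex tested in NOP1 2 were higher, and of 8 in NOP56 3 were higher. PRE9, a subunit of the proteasome core, stood at 2.13 and 2.81 in NOP1 and at 2.23 and 1.86 in NOP56. Of proteasome strains, 6 of 34 were higher in NOP1 and 7 of 36 in NOP56, where RPN8 of the lid was lower (-1.28), and none of 34 was called in NOP58. Of all strains tested, 4.71% were higher in NOP1 and 4.84% in NOP56. The 1 lower proteasome strain in NOP56 was 2.78%, near the 2.64% of all strains. NCL1, a tRNA cytosine methyltransferase, was lower in NOP56 at -3.25 and -2.94 and stood at -2.82 and -1.62 in NOP1.

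**Figure D3:**
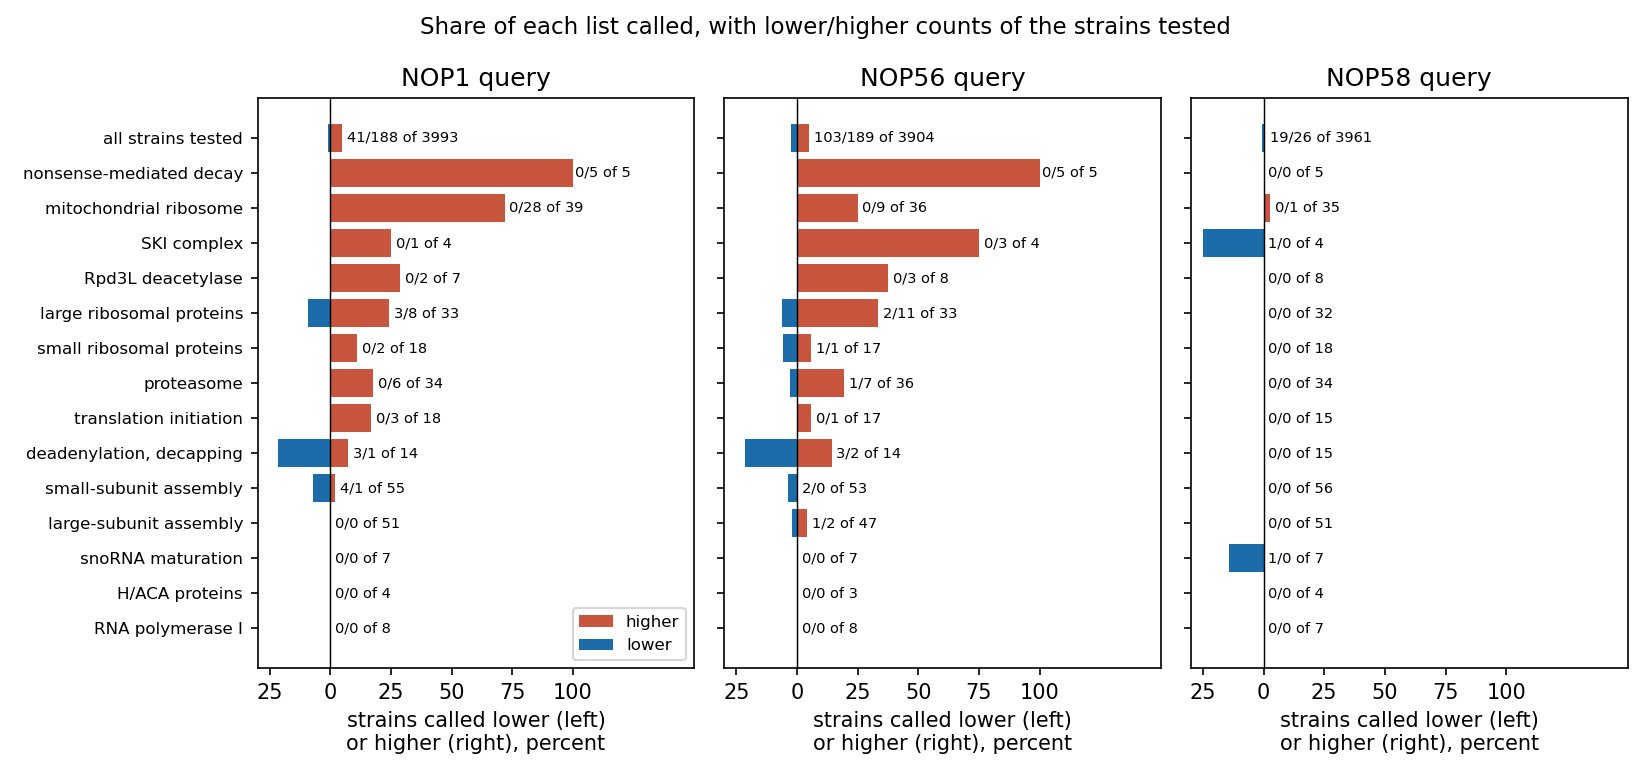
Share of the tested strains of each list called lower (blue, to the left of 0) or higher (red, to the right), in percent, with one panel per query. Numbers beside the bars give lower/higher counts of the strains tested. All 5 nonsense-mediated decay strains are higher in NOP1 and NOP56, the mitochondrial ribosome has 28 of 39 in NOP1 and 9 of 36 in NOP56, and the NOP58 panel is nearly empty.

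Strains shared by the queries were counted next. Among 3639 strains tested in all 3 queries, 1 was called in all of them, 0.0275%, and in the higher direction. It was RPC34, a subunit of RNA polymerase III, at 2.31 and 1.23 in NOP1, 3.93 and 1.51 in NOP56, and 2.11 and 1.46 in NOP58. Screen 1 was the higher in each query, and without screen 1 the call was lost in each, at 1.23, 1.51 and 1.46. With a block for the reference pool RPC34 was 0.77 in NOP58, not called. In the other DAMP queries with 2 screens of this strain its mean ran from -0.22 (SMT3) to 1.26 (CBF5).

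NOP1 and NOP56 share no reference pool, and 95 strains were called in both of 3776 tested in both. The 14 lower strains were 36.8% of the NOP1 list of 38 and 14.1% of the NOP56 list of 99. The 81 higher strains were 47.4% of the NOP1 list of 171 and 44.3% of the NOP56 list of 183. No strain was called in opposite directions. With quantile normalization 26 were shared, 53.8% of them lower in place of 14.7%. NOP1 and NOP58 also share no pool, and 1 lower and 1 higher strain were called in both of 3833, which is 5.88% of 17 lower and 4.35% of 23 higher NOP58 calls. NOP56 and NOP58 were compared with the same 2 reference populations, so no overlap is given for them. YBR144C, for example, stood at -2.36 and -0.93 in NOP56 and at -2.46 and -1.61 in NOP58 and was called in both, but with a block for the reference pool it stood at 0.01 in NOP56 and -0.38 in NOP58.

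**Figure D4:**
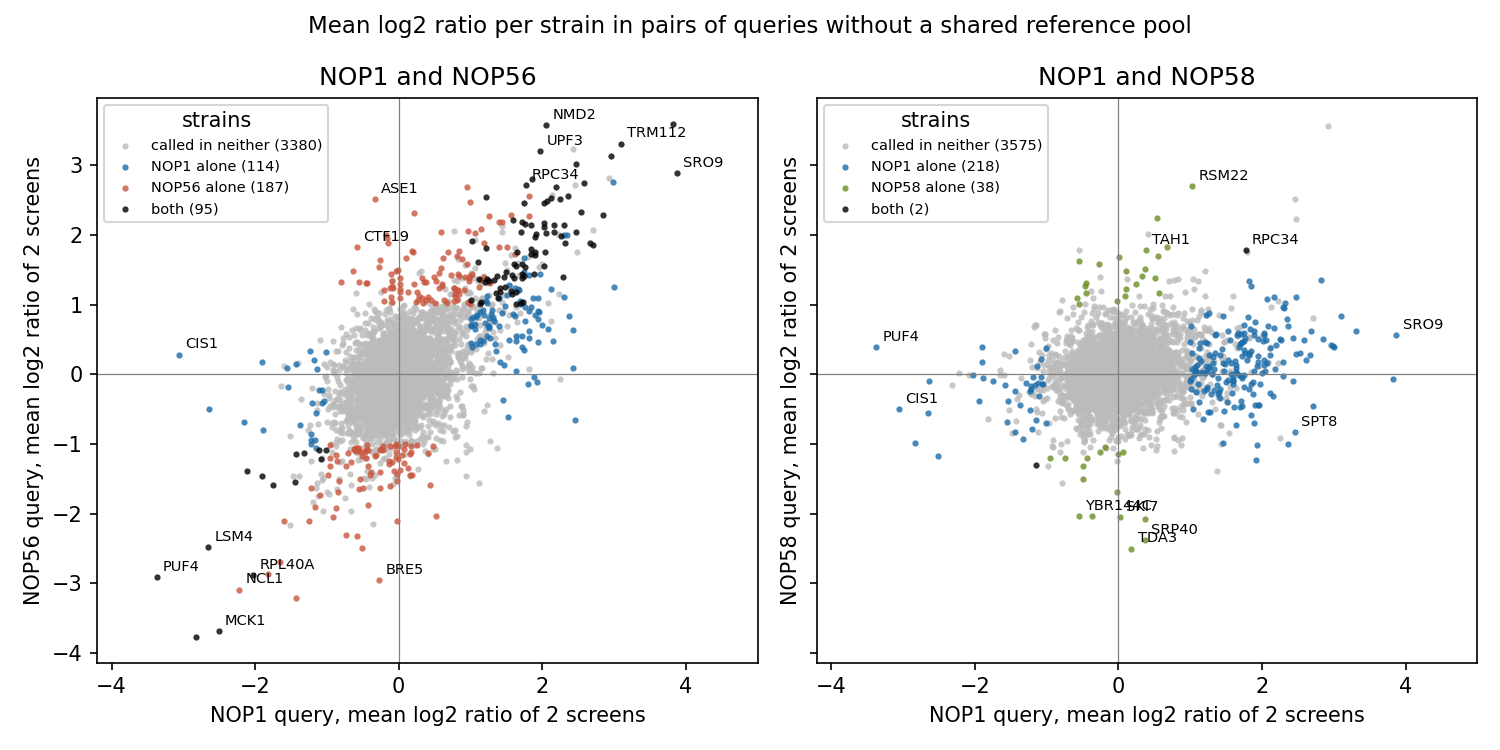
Mean log2 ratio of each strain in NOP1 (horizontal axis) against NOP56 (left panel) and NOP58 (right panel), over 2 screens each. Black points are called in both queries of a panel, 95 on the left and 2 on the right, and coloured points in 1 of them. On the left the black points lie along the diagonal, with PUF4 and SRO9 at opposite ends.

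By whole profile, NOP1 and NOP56 were each other's nearest query. The mean r over their 4 pairs of screens was 0.446 (0.365 to 0.486), where the median over all 153 other queries was 0.0499 for NOP1 and 0.042 for NOP56. After NOP56, the queries most like NOP1 were RPS28A (0.329), RPL37B (0.291), UBC11 (0.290) and GCN4 (0.280). After NOP1, those most like NOP56 were TRM112 (0.307), IRC13 (0.265), GCN4 (0.197) and RPS28A (0.194). Only pairs of screens with different reference pools entered these means. For NOP58 the 5 highest were UBC11 (0.153), HTB2 (0.143), NOP1 (0.142), DMA1 (0.141) and AIR2 (0.139). The arrays of UBC11 and DMA1 had been turned in sign. The H/ACA queries CBF5, NHP2 and SHQ1 lay between -0.0447 and 0.0842 for all 3 queries.

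The mean of the 3 queries was then set against the mean of all other queries, so that a strain low in most queries gives no difference. A call here needs a difference of at least 0.5. The contrast called 114 strains lower (3.13% of 3639) and 342 higher (9.4%), and with quantile normalization lower calls were 47.5% in place of 25%. The lowest named strains with all 3 query means below the other queries were ELM1 (-2.16), MCK1 (-1.78), LSM4 (-1.76), MSI1 (-1.30), LSM6 (-1.27), YBR144C (-1.24), PTC6 (-1.18) and NOP6 (-1.12). With a block for the reference pool YBR144C stood at 0.05. MSI1 is a subunit of a histone chaperone and PTC6 a mitochondrial phosphatase. The highest were SRO9 (2.52), HUR1 (2.51), SDS3 (2.47), SAP30 (2.47) and PMR1 (2.45). HUR1 (YGL168W) and PMR1 (YGL167C), a calcium pump of the Golgi, are neighbouring loci. SDS3 and SAP30 belong to the large Rpd3 complex, of which 6 of 7 strains were higher in this contrast, from an average of -0.83 for SAP30 in the other queries. All 5 nonsense-mediated decay strains, 20 of 32 mitochondrial ribosomal and 12 of 30 proteasome strains were higher. In NOP58 by itself these lists had medians of -0.02, -0.01 and 0.34, with 0 of 5, 1 of 35 and 0 of 34 called. SDS3 was called in none of the 3 queries by itself.

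Against the H/ACA queries, 9 strains were lower (0.248% of 3631) and 100 higher (2.75%), with 21.1% lower in place of 8.3% under quantile normalization. NOP56 and NOP58 share both pools with CBF5 and SHQ1, and NHP2 shares one with each of the 3 queries. PUF4 differed by -2.93 (adjusted p = 0.0002263), MCK1 by -2.16, LSM4 by -2.0, BRE5, the cofactor of a deubiquitinase, by -1.52, PTC6 by -1.29 and RBS1, an RNA polymerase III assembly factor, by -1.27. On the other side ERG2, a sterol isomerase, differed by 2.76. It averaged -1.81 in the H/ACA queries and 0.94 in the box C/D ones. MEF2 differed by 2.52 (adjusted p = 3.68e-06), PKR1 by 2.42, SRO9 by 2.33, PMR1 by 2.30 and TRM112 by 2.29. Of the nonsense-mediated decay strains 4 of 5 were higher, and of the small- and large-subunit assembly factors 0 of 52 and 0 of 44 were called. Without NOP58 the contrast called 235 strains.

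The 3 queries also differed from each other strain by strain. Between NOP1 and NOP56, 50 strains were lower (1.32% of 3776) and 29 higher (0.768%) in NOP1. CIS1 (YLR346C) stood at -2.87 and -3.25 in NOP1 and at -0.17 and 0.74 in NOP56, a difference of -3.34 (adjusted p = 6.81e-15). ASE1, a spindle midzone protein, stood at -0.18 and -0.48 in NOP1 and at 1.98 and 3.06 in NOP56. CTF19 and MCM21, which belong to the same inner kinetochore complex, stood at -0.80 and -0.37 (CTF19) and 0.15 and -0.50 (MCM21) in NOP1, and at 1.82 and 1.84 and at 2.95 and 1.04 in NOP56. For each of these 4 strains the screens of NOP1 and NOP56 did not overlap. Higher in NOP1 were MDM34, a tether between mitochondria and the endoplasmic reticulum (2.43 and 2.42 against -0.04 and 0.23), and NRM1, a transcription corepressor (1.82 and 1.23 against -1.17 and -0.07). Of 21 alternatives, 10 lost the MDM34 call and 12 the NRM1 call. Of the calls, 63.3% were lower in NOP1, and 87.5% were with quantile normalization. Without screen 1 of NOP1 there were 22 calls, without its screen 2 122, and without screen 2 of NOP56 127.

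Between NOP1 and NOP58, 33 strains were lower (0.861% of 3833) and 69 higher (1.8%) in NOP1, and between NOP56 and NOP58, 34 were lower (0.903% of 3765) and 68 higher (1.81%) in NOP56, 2.71% in all. The lower share of 32.4% became 80% and that of 33.3% became 68.8% under quantile normalization. RPO41, the mitochondrial RNA polymerase, stood at 2.69 and 2.04 in NOP1 and at -1.04 and -0.96 in NOP58. CCM1, a mitochondrial RNA-binding protein, stood at 3.34 and 2.08 against -0.95 and 0.05. CLB2, a mitotic cyclin, was lower in NOP1 at -1.84 and -1.97, with -0.57 and 1.36 in NOP58. LST8, a subunit of the TOR complexes, was lower in NOP56 at -0.92 and -4.06, with 1.06 and -0.22 in NOP58. Without screen 1 of NOP1 its difference from NOP58 had 38 calls, and without screen 1 of NOP58 67.

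The calls of NOP58 named few strains that repeated between its screens. ATC1 was lower in both screens at -1.93 and -2.15 (mean -2.04 ± 0.15, SD, n = 2, adjusted p = 0.002547), with means of -0.37 in NOP1 and -0.01 in NOP56. TDA3 stood at -4.46 and -0.55, RTT106, a histone chaperone, at -3.34 and -0.81, and SRP1, the importin that carries nuclear proteins, at -2.83 and -0.54. The last 3 were far lower in screen 1 than in screen 2. SRP1 was also lower in NOP56, at -2.45 and -1.77, where screen 1 has the same reference pool. IRC3, a mitochondrial helicase, was higher at 1.93 and 1.73, and RCK2, a protein kinase, at 3.89 and 0.61. The IRC3 call was lost from either screen alone and with a block for the reference pool (0.25). ATC1 was not called without screen 2 (-1.93).

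**Figure D5:**
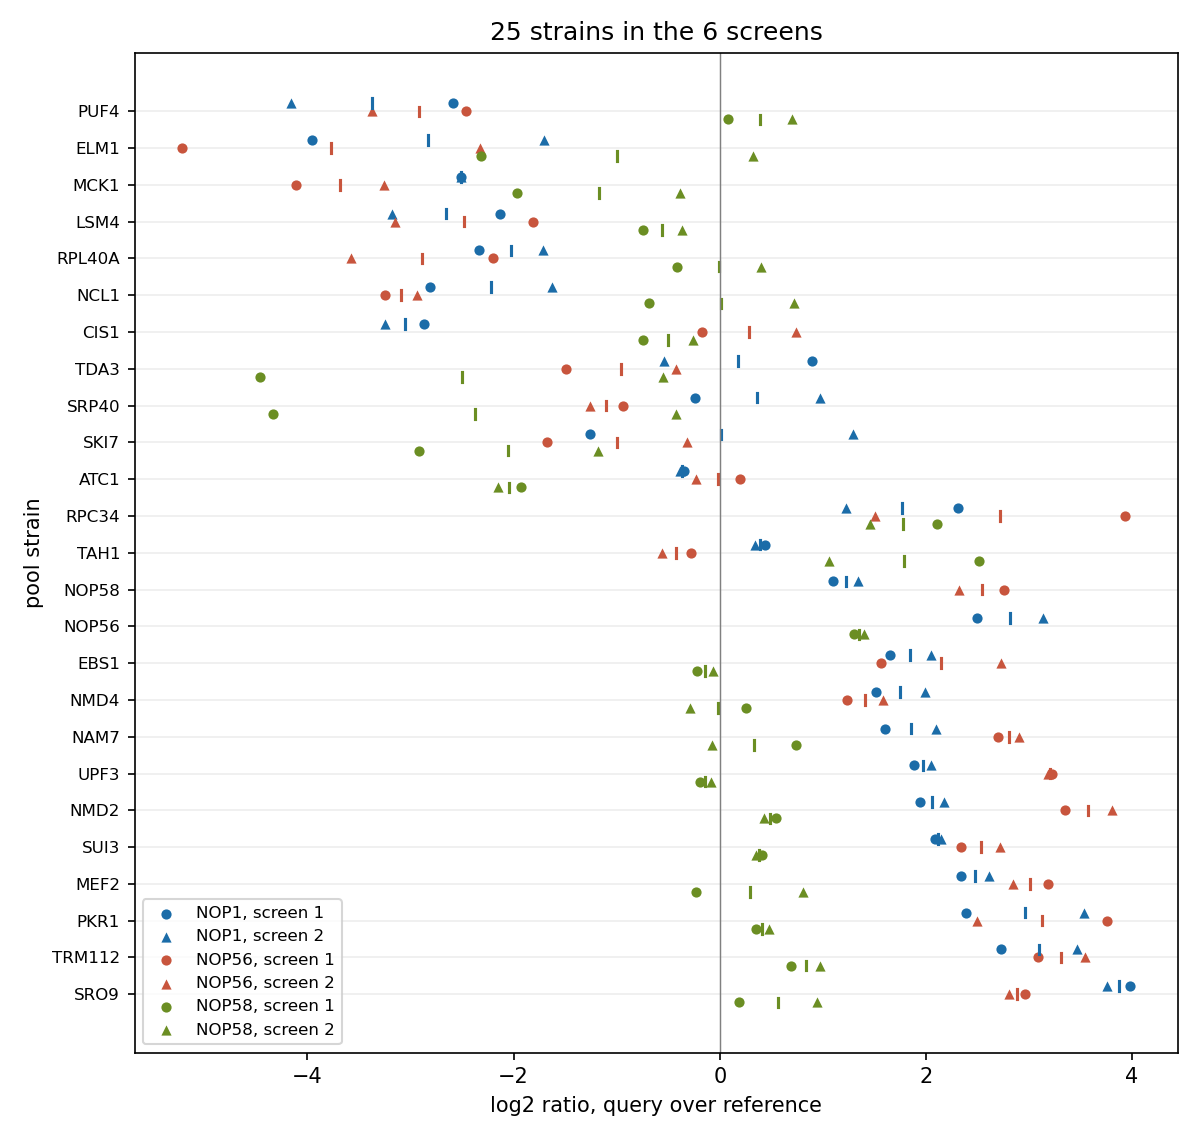
Log2 ratio (horizontal axis) of 25 strains (vertical axis) in the 6 screens. Blue is NOP1, red NOP56 and green NOP58. Circles are screen 1, triangles screen 2 and short bars the mean of each query. The NOP1 and NOP56 points of PUF4, LSM4, SRO9, TRM112 and the nonsense-mediated decay strains lie on the same side of the NOP58 points and apart from them. For NMD2, UPF3 and NAM7 the NOP56 points lie above the NOP1 points. TDA3 and SRP40 are below -4 only in screen 1 of NOP58.

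Strains within 100 genes of YEL068C, where the arrays against the YEL068C reference ran high, were described apart. They made up 4 of 229 calls in NOP1, 6 of 292 in NOP56 and 0 of 45 in NOP58. MTC7, 39 genes away, was nevertheless high against both kinds of reference, at 3.79 and 3.85 in NOP1 and at 3.07 and 4.12 in NOP56, with 0.05 and -0.19 in NOP58. PRE1, a proteasome core subunit 94 genes away, stood at 2.24 and 2.27 in NOP1 and at 2.84 and 2.21 in NOP56.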

How the data were processed

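Barcode DNA was measured on 2-colour arrays, and per the labels the query carried Cy3 and the reference Cy5. The authors deposited 1 log ratio per feature. Neither base, scaling nor sign is given in the sources used here, so log2 is assumed from the range of the deposited values, and the sign was set by the loss of strains near each query locus. Features of a strain were averaged and arrays centred on their median. One mean per query was fitted over 304 screens with limma 3.58.1 (R 4.3.3), with Benjamini-Hochberg adjustment over 547925 pairs. Calls need an adjusted p under 0.05 and a size of 1 (0.5 against all other queries). Figures used Python 3.11.15 and matplotlib 3.10.9. The number of arrays limits the precision. Scripts were tested on simulated data.

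Members and lists were chosen with earlier results of these data known. The text names the extremes of each comparison and examples from each list, and strains named otherwise were chosen after their values were seen. The 6 names MRS1, MRS2, MRS3, MRS4, MRS6 and RPP1, which matched a list's name pattern but code for other proteins, were taken out after values were seen. Replicate numbers do not come from shared crosses in the labels. Deviations of same-numbered screens correlated at 0.154, 0.166 and 0.303, and the number follows the kind of reference. Alternatives changed scaling, features, linked window, blocks, queries in the fit and screens left out.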

Additional observations from a re-analysis of the deposited data

Results flagged for a closer look

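Differences between queries that passed the test of the difference itself (limma, adjusted over strains and the 3 pairs of queries) are given here as values, lower or higher in the query named first. Their causes were not tested.

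NOP1 was lower than NOP56 for ASE1 by a log2 difference of -2.85 (adjusted p = 7.71e-07), CIS1 by -3.34 (adjusted p = 6.81e-15), CTF19 by -2.41 (adjusted p = 6.42e-06) and MCM21 by -2.17 (adjusted p = 0.00245). It was higher for BRE5 by 2.68 (adjusted p = 0.0331), MDM34 by 2.33 (adjusted p = 0.0431), NRM1 by 2.14 (adjusted p = 0.0462) and RTC2, a vacuolar transporter, by 2.56 (adjusted p = 0.00191). Of 21 alternatives, 12 lost the call of NRM1, 10 that of MDM34 and 6 each those of BRE5, MCM21 and RTC2, while ASE1, CIS1 and CTF19 were called under all 21.

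NOP1 was lower than NOP58 for PUF4 by -3.76 (adjusted p = 0.0195), CIS1 by -2.56 (adjusted p = 4.82e-09), NOP6 by -2.54 (adjusted p = 0.000816) and CLB2 by -2.3 (adjusted p = 0.00671). It was higher for RPO41 by 3.36 (adjusted p = 5.19e-06), SRO9 by 3.3 (adjusted p = 0.00115), SPT8, a subunit of the SAGA coactivator, by 3.28 (adjusted p = 0.0424) and CCM1 by 3.16 (adjusted p = 7.27e-05). Of 21 alternatives (20 for CLB2), 9 lost the call of SPT8, 6 that of PUF4, 5 that of NOP6, 3 each those of CLB2 and SRO9 and 1 that of CCM1, while CIS1 and RPO41 were called under all 21.

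NOP56 was lower than NOP58 for PUF4 by -3.3 (adjusted p = 0.0497), LST8 by -2.91 (adjusted p = 0.00225), RPL40A by -2.88 (adjusted p = 0.0489) and YJR084W by -2.58 (adjusted p = 0.00947). It was higher for UPF3 by 3.34 (adjusted p = 0.00255), NMD2 by 3.09 (adjusted p = 0.00648), ERG5, a sterol desaturase, by 2.81 (adjusted p = 0.0055) and TVP18, a Golgi membrane protein, by 2.79 (adjusted p = 0.00477). Each of these calls was lost under some of 21 alternatives, PUF4 under 14, RPL40A under 8, YJR084W under 6, TVP18 under 5, LST8 and NMD2 under 4 each, and ERG5 and UPF3 under 3 each.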

How the results depend on the processing

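Each query rests on 2 screens against different kinds of reference, so the population and the reference cannot be told apart between screens. The cause of the moves below was not tested. With quantile normalization there were 103 calls in NOP1, 116 in NOP56, 0 in all 3 queries and 26 shared by NOP1 and NOP56. The same setting gave 219 calls against other queries, 38 against H/ACA, 16 for NOP1 minus NOP56, 20 for NOP1 minus NOP58 and 16 for NOP56 minus NOP58. With scaled arrays these counts were 121, 35, 0 and 14, then 170, 21, 10, 13 and 4, with 24 in NOP58. With DAMP queries alone in the fit they were 125, 151, 0 and 63, then 8, 24 and 22 between queries, with 5 in NOP58. From mixed-reference screens alone they were 100, 192, 0 and 27, then 241, 67, 24, 16 and 45. The reference pool as a block gave 6 strains called in all 3 queries, RPC34 not among them, and 179 calls for NOP56 minus NOP58. Counts of like size need not hold the same strains. With that block 55 strains were called in NOP58, 15 of them among its 45 main calls. Without screen 1 of NOP58 most of its calls also fell on other strains. Features on all 7 arrays gave 3 strains in all 3 queries. Against other DAMP queries alone 185 strains were called, and NOP56 and NOP58 minus CBF5 and SHQ1 gave 42. The H/ACA contrast without NOP58, an alternative chosen after seeing the data, gave 235. In the ranges below, the part left out was a screen of any of the 3 queries or a single NOP1 array.

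Leaving out a screen in turn gave 117 to 233 calls in NOP1, 217 to 356 in NOP56, 45 to 154 in NOP58, 0 to 1 in all 3 and 41 to 96 in both NOP1 and NOP56. The contrasts ranged from 372 to 580 against other queries and from 81 to 120 against H/ACA. For the count in both NOP1 and NOP56 the value without screen 1 of NOP1 was 61. NOP1 minus NOP56 ranged from 22 to 127, with 73 without screen 1 of NOP58, NOP1 minus NOP58 from 38 to 131 and NOP56 minus NOP58 from 83 to 152.

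With the replicate number as a block, a replicate block that also stands for the kind of reference, there were 204 calls in NOP1, 253 in NOP56 and 45 in NOP58, and no count moved by over 1.5 times. Of the values of named strains under the alternatives, 5131 kept direction and side of the threshold, 1044 lost the call and 7 changed sign. DIS3 in NOP56 became -0.23 and PUS2 in NOP56 -0.39, both from mixed-reference screens alone and without screen 1 of NOP56, where leaving out screen 2 gave 2.77 and 2.49. PUS2 in NOP1 minus NOP56 became 0.18 without screen 1 of NOP56 and -2.70 without screen 2. YBR144C became 0.011 in NOP56 and 0.046 against other queries with the reference pool as a block.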

Other observations

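Other groups were chosen after their values were seen and given no test. Over all strains tested, 4.71% were higher in NOP1, 4.84% in NOP56 and 0.656% in NOP58. Of the subunits of the mitochondrial ATP synthase, 6 of 8 were higher in NOP1 (median log2 ratio 1.43) and 4 of 7 in NOP56 (1.10), with 0 of 8 in NOP58 (-0.01). Of the mitochondrial tRNA synthetases, which charge tRNA for translation inside the organelle, 6 of 7 were higher in NOP1 (1.91) and 4 of 6 in NOP56 (1.28), with 0 of 5 in NOP58 (-0.26).

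The Ctf19 complex of the inner kinetochore had 5 of 10 strains higher in NOP56 (median 1.11), against 0 of 10 in NOP1 (-0.22) and 0 of 10 in NOP58 (-0.05). Subunits of RNA polymerase III were higher for 2 of 6 strains in NOP1 and 2 of 6 in NOP56, and for 1 of 6 in NOP58, with medians of 0.35, 0.16 and 0.29. RPC17 and RPC34 were the higher strains in NOP1 and NOP56, and RPC34 in NOP58.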
